A study of Mus musculus with 6 samples.

Results

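The annexins are a family of calcium-dependent, phospholipid-binding proteins, and 10 annexin genes of the mouse are described here: Anxa1, Anxa2, Anxa3, Anxa4, Anxa5, Anxa6, Anxa7, Anxa10, Anxa11 and Anxa13. They were taken by name from the 31319 genes counted, with earlier results of these data known. Single-nucleus RNA-seq, which counts the RNA left in isolated nuclei, was carried out on organoids (epithelial cultures grown from intestinal crypts) of the jejunum of C57BL/6 mice aged 8 to 12 weeks. The study asked how factors released by senescent cells act on the intestinal epithelium. One group of 3 samples was kept in quiescent conditioned medium (QCM), taken from mouse embryonic fibroblasts made quiescent by low serum. The other group of 3 samples was kept in senescent conditioned medium (SCM), taken from the same kind of fibroblast after X-ray irradiation or doxorubicin. The sources used here do not give which of these agents was used for the sequenced SCM samples. In both groups the conditioned medium had been made without serum, concentrated and mixed with organoid growth medium, so the fibroblasts themselves were not in the cultures. The labels do not say whether the samples of a group came from separate mice or cultures, and p-values therefore measure only the spread between these samples.

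The 6 samples held 38154 nuclei, from 430 in SCM replicate 1 to 10833 in SCM replicate 3, and between 4071926 and 41035733 UMIs (unique molecular identifiers, each 1 counted RNA molecule). SCM replicate 1 stood apart. Of its nuclei, 175 (40.7%) carried a barcode that was also in QCM replicate 1, against 0 to 36 shared barcodes in the other pairs of samples, and its 10 deepest nuclei held 36.7% of its UMIs, against less than 5% in each other sample. For the shared barcodes, the nucleus in SCM replicate 1 was best matched by the same barcode in QCM replicate 1 in 1 of 175 cases. Of the shared barcodes, 22.9% fell in the same cluster in both samples, against 14.5% if clusters were independent. The main differences between the media are therefore also given without this sample, its shared barcodes or its deepest nuclei.

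Annexins share a core of repeated domains that binds to negatively charged membrane lipids when calcium rises, and differ in their N-terminal tails, which carry the binding sites for partner proteins. In epithelia they take part in vesicle traffic, in the coupling of membrane to actin and in the resealing of torn membrane. Anxa1 is also a secreted ligand of formyl peptide receptors that limits inflammation, and is known as a gene of regenerating intestinal epithelium.

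Each member lies at its own locus, and Anxa7 and Anxa11 share a chromosome. In GENCODE M21 on GRCm38, the genes are Anxa1 (chr19:20373428-20390944, minus strand), Anxa2 (chr9:69453620-69491795, plus), Anxa3 (chr5:96793339-96845966, plus), Anxa4 (chr6:86736840-86793584, minus), Anxa5 (chr3:36448923-36475894, minus), Anxa6 (chr11:54979108-55033445, minus), Anxa7 (chr14:20455260-20480133, minus), Anxa10 (chr8:62057042-62123150, minus), Anxa11 (chr14:25842156-25886804, plus) and Anxa13 (chr15:58341471-58389244, minus). An antisense gene, Anxa11os, lies within Anxa11 on the other strand. All were annotated as protein coding except Anxa13, which this annotation lists as a processed transcript.

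Promoter windows, from 250 bases before to 50 bases after the transcription start in RefSeq (GRCm38.p6), were given for 7 of the 10 members (9 windows), and not for Anxa3, Anxa6 and Anxa13. They were searched on both strands for the core of the TEAD site, CATTCC, for the AP-1 site, TGANTCA, and for the TATA box, TATAAA. Of 32817 windows of all genes, 14.7% held the first, 7.81% the second and 13.6% the third. The TATA letters were found in Anxa1, Anxa2 and Anxa10, and not in the windows of Anxa4, Anxa5, Anxa7 and Anxa11. Of these genes, Anxa1, Anxa2 and Anxa10, but also Anxa5 and Anxa7, had their highest level in cluster 7 (described next). The TEAD letters were found once in Anxa1, the AP-1 letters once in Anxa2 and at 2 places in Anxa10. The stretches that hold these letters are shown with the motif in capitals, since they are what these windows hold and the windows of the other members lack. The TATA letters alone are common to all 3 genes. For Anxa1 they are at chr19:20390890-20390919 and chr19:20390686-20390715 (minus strand), for Anxa2 at chr9:69453576-69453605 and chr9:69453654-69453683 (plus strand), each 30 bases, and for Anxa10 at chr8:62123194-62123443 (minus strand), the 250 bases before the start.
Anxa1, TEAD letters: actgcactgaacCATTCCtgtgaggaataa
Anxa1, TATA letters: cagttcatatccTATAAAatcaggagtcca
Anxa2, AP-1 letters: ttccaagttggaTGAGTCAcccagcagggt
Anxa2, TATA letters: ggatggggcgggTATAAAagccccacccag
Anxa10, AP-1 and TATA letters: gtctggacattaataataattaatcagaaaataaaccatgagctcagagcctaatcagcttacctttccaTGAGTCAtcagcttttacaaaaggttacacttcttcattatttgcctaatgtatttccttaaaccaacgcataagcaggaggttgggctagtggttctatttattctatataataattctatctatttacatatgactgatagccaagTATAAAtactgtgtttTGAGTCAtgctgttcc
The TATA letters began 32 bases before the start in Anxa1 and in Anxa10, and 17 bases before it in Anxa2. These starts are those of RefSeq. The GENCODE genes of Anxa1 and Anxa2 given above begin further upstream. The Anxa1 stretches and the TATA stretch of Anxa2 therefore lie inside the GENCODE genes. In Anxa10 the AP-1 letters lay on both sides of the TATA letters, 180 and 16 bases before the start. These matches are letters in a window and say nothing about which factors were bound.

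The deposited annotation placed the nuclei in 15 clusters, numbered 0 to 14. Levels are given as counts per 1000000 UMIs of the sample or cluster (CPM), for samples with at least 10 nuclei of a cluster. Because the clusters were made from the same nuclei, a cluster against the rest is a description with no test. Cluster 7 showed 7 of 11 fetal-type markers other than annexins (Clu, Ly6a, Msln, Il1rn, Ctsl, Ccn2 and Vsig1) at 2-fold or more over the other nuclei and is called fetal-like. The same rule made cluster 11 tuft-like, cluster 8 enterocyte-like and cluster 6 goblet and Paneth-like, with clusters 9 and 10 being enteroendocrine-like. Cluster 1 showed markers of several types and was left unnamed, as were the remaining clusters.

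Anxa1, Anxa2, Anxa3, Anxa5, Anxa7 and Anxa10 had their highest level in cluster 7. Anxa1 reached 131 ± 93.5 CPM there (SD, n = 6), against 22.8 ± 14.5 in cluster 1, the next in order. Anxa3, a less studied member, reached 211 ± 98.6 CPM (SD, n = 6), and was the 1 member whose samples in cluster 7 all lay above all samples of the next cluster (cluster 13, 33.3 ± 23.5 CPM, n = 4). Anxa10, best known from the gastric epithelium, was at 180 ± 83.6 CPM in cluster 7 and at 51.2 ± 78.9 in the enterocyte-like cluster 8, where SCM replicate 2 alone was at 210.9 CPM and the other 5 samples lay between 8.28 and 34.1. Anxa5, which binds exposed phosphatidylserine, had 53.6 ± 22.0 CPM in cluster 7 and 24.5 ± 12.96 in cluster 1. For Anxa2, which pairs with S100a10 at the plasma membrane, the level was 395 ± 113 CPM in cluster 7, 214 ± 134 in cluster 8 and 193 ± 28.0 in cluster 13. In Anxa1, Anxa2, Anxa3, Anxa5 and Anxa10 the step from cluster 7 to the next cluster was larger than the SD in either cluster, and the sample ranges nevertheless overlapped for all but Anxa3. Below cluster 7, neighbours in the order did not differ beyond their spread in these members, except for the step of Anxa2 from cluster 13 to cluster 1.

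**Figure D1:**
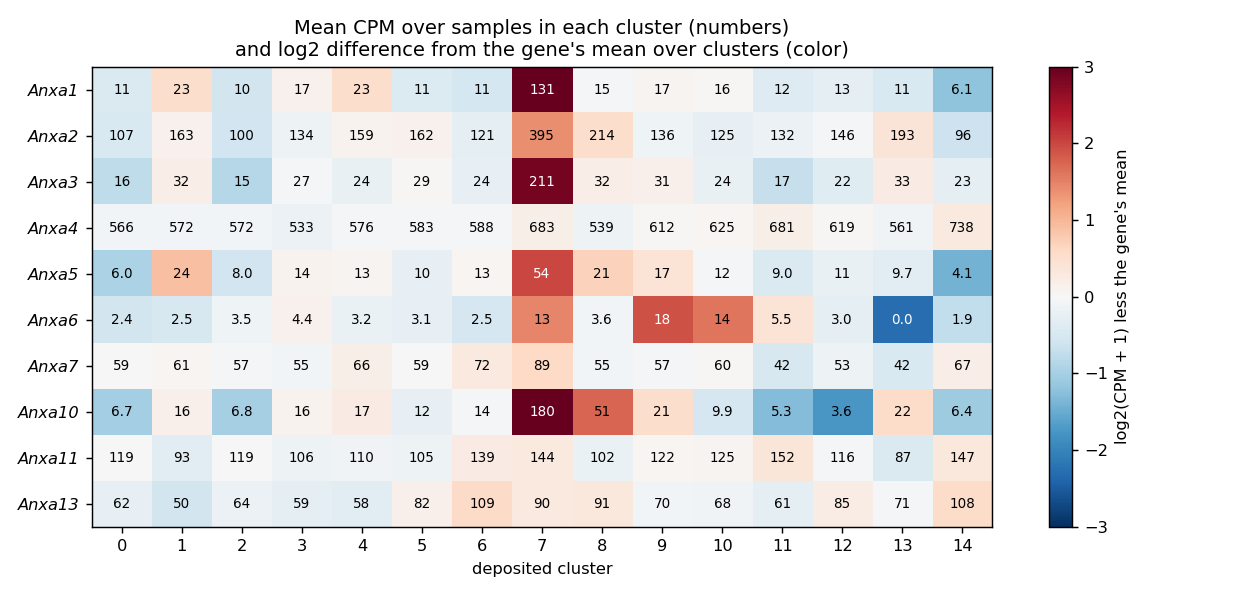
Mean CPM over samples of each annexin (rows) in each deposited cluster (columns), with n between 3 and 6 samples. Numbers are the CPM and the color is log2(CPM + 1) less the mean of that gene over clusters, with the scale ending at 3. Anxa1 (131 CPM), Anxa3 (211 CPM) and Anxa10 (180 CPM) stand out in cluster 7, while the rows of Anxa4 and Anxa11 are nearly even.

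Cluster 7 held 17 nuclei in SCM replicate 1 and 145 to 524 in the other samples. These had 16681 UMIs on average in SCM replicate 2 and 2263 to 9950 in the other samples, so the cluster's share of all UMIs varied too. Cluster 7 supplied 42.8% ± 17.8 (SD, n = 6) of the UMIs of Anxa10, 32.9% ± 18.9 of those of Anxa3 and 31.3% ± 19.2 of those of Anxa1. The share was 20.9% ± 16.1 for Anxa5 and 16.3% ± 15.1 for Anxa2. It was 17.9% ± 21.3 for Anxa6, and between 7.63% and 9.35% on average for Anxa4, Anxa7, Anxa11 and Anxa13. These shares were not set against the cluster's share of all UMIs. For Anxa4, Anxa7, Anxa11 and Anxa13, cluster 7 exceeded the other nuclei by no more than 0.66 in mean log2(CPM + 1) in either medium.

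Within cluster 7 the samples differed in how many nuclei these UMIs came from. In QCM replicate 1, a single nucleus gave 300 of the 442 Anxa10 UMIs of the cluster, and 23 of 145 nuclei had an Anxa1 UMI. That nucleus, the deepest of the cluster with 111511 UMIs, also held 148 Anxa2 and 88 Anxa3 UMIs, but 15 of Anxa1 and 4 of Anxa5. In SCM replicate 2, by contrast, 99 of 204 nuclei had an Anxa1 UMI, and the 5 richest nuclei held 33.2% of them, against 86.5% in QCM replicate 1. Some of these members were seen together. Among cluster 7 nuclei with an Anxa1 UMI, between 52.2% and 92.9% also had an Anxa3 UMI in the 6 samples, and among those without it between 6.05% and 15.6%. The corresponding ranges were 30.4% to 68.7% and 0% to 14.8% for Anxa10, and 34.6% to 68.7% and 0% to 12.3% for Anxa5. For Anxa2, found in more nuclei, the ranges overlapped (68.2% to 92.9% and 0% to 69.7%), with 78.3% and 69.7% in QCM replicate 1. Nuclei with an Anxa1 UMI were also deeper in every sample (medians of 9413 against 6901 UMIs in QCM replicate 1 and of 20593 against 2346 in SCM replicate 2), and the part of depth in this joint detection was not tested.

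To take depth out of the comparison, the share of nuclei with a UMI was computed for 1000 UMIs per nucleus, as the expectation over all draws. Nuclei with fewer UMIs were left out, among them 106 of 430 in SCM replicate 1 and 1876 of 10144 in QCM replicate 3. On this scale 7.0% of cluster 7 nuclei had an Anxa1 UMI on average over samples, 9.58% an Anxa3 UMI, 5.20% an Anxa10 UMI and 3.82% an Anxa5 UMI. In the other clusters the shares ran from 0.57% to 2.93% for Anxa1, from 1.57% to 4.09% for Anxa3, from 0.42% to 2.47% for Anxa10 and from 0.34% to 2.66% for Anxa5. Cluster 7 was therefore also the highest for these 4 members with each nucleus at the same depth. For Anxa2 the share was 20.6% in cluster 7 and 18.6% in cluster 13. Anxa7, also highest in cluster 7 by CPM, was not highest there on this scale. Its share was 6.79% ± 1.28 in cluster 7 and 7.22% ± 1.78 in cluster 6 (SD, n = 6), a difference smaller than the spread.

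Among the other members, Anxa6, which acts at endosomes, had its highest means over all samples in the enteroendocrine-like clusters, at 17.5 ± 7.23 CPM in cluster 9 and 13.9 ± 5.90 in cluster 10 (SD, n = 5). These levels rested on 5 to 19 UMIs per sample in cluster 9 and 3 to 7 in cluster 10. Cluster 7 came next at 12.5 ± 10.0 CPM. This order held in QCM, with means of 16.7, 11.03 and 4.40 CPM in clusters 9, 10 and 7, while in SCM they were 18.7, 18.3 and 20.6 CPM. Over all samples, no step between neighbours at the top of this order exceeded the spread. In cluster 13, 0 UMIs of Anxa6 were counted among 434681, which allows a level of up to 6.90 CPM, for counting error only.

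Anxa13, a lipid-anchored member largely restricted to the intestine, where it takes part in apical transport, was highest in the goblet and Paneth-like cluster 6 at 109 ± 36.9 CPM (SD, n = 6). The samples there were at 55.8, 150.7 and 117 CPM in QCM replicates 1, 2 and 3, and at 73.4, 136 and 121 CPM in the SCM replicates. The lowest were the replicates numbered 1 of both media, as for Anxa13 over all nuclei. At 1000 UMIs per nucleus, 11.2% of cluster 6 nuclei had an Anxa13 UMI, against 10.4% in cluster 14 and 4.75% to 7.65% in the other clusters. The step in CPM from cluster 6 to cluster 14 (108 ± 55.3 CPM, n = 3) was smaller than the spread.

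Anxa4 and Anxa11 had a narrower range over clusters. Anxa4, a member long known from epithelial secretory cells, ran from 533 CPM in cluster 3 to 738 CPM in cluster 14, and Anxa11, which links RNA granules to lysosomes, from 86.7 CPM in cluster 13 to 152 CPM in the tuft-like cluster 11. Anxa7, named synexin for its part in granule fusion, ran from 41.7 CPM in cluster 11 to 89.4 ± 9.37 CPM in cluster 7 (SD, n = 6). At equal depth per nucleus, the share of nuclei with an Anxa7 UMI was 6.79% in cluster 7 and 7.22% in cluster 6. In CPM, the lowest cluster 7 sample of Anxa7, at 71.6, lay above every sample of clusters 0, 1, 2, 5, 9, 11 and 13. For these 3 genes and for Anxa13, 0 of the 14 steps between neighbours in the order of clusters exceeded the larger SD of the pair.

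Likeness between genes was described by Pearson's r of log2(CPM + 1) across the 14 clusters with at least 100 nuclei, all of which share the same 6 libraries. Anxa1 and Anxa3 were most alike among the members (r = 0.93), followed by Anxa2 and Anxa3 (r = 0.93), and Anxa10 and Anxa11 were least alike (r = 0.01). Of 12087 genes that reached 10 CPM in a cluster, those nearest to Anxa1 were Lmna (r = 0.98), which encodes lamin A/C, Ccnd2 (r = 0.97), a D-type cyclin, and Col4a1 (r = 0.95), a basement membrane collagen. Col4a1 was also the nearest gene to Anxa3 (r = 0.97), followed by Mmp15 and Il1rn, the latter a marker of the fetal-type list. The galectin gene Lgals3 was the nearest gene to Anxa2 (r = 0.96) and to Anxa10 (r = 0.93). The tight junction gene Cldn4 was nearest to Anxa5 (r = 0.95), Birc3 to Anxa13 (r = 0.95), Fam129b to Anxa4 (r = 0.94), Prkacb, a catalytic subunit of protein kinase A, to Anxa11 (r = 0.94), Vamp5 to Anxa7 (r = 0.93) and Rbms3 to Anxa6 (r = 0.91). The next genes in order were Col4a1 and Cxcl16 for Anxa2, Mid2 and Myh9 for Anxa4, Atp11a and Glis3 for Anxa6, and Trib1 and Mrc1 for Anxa7. They were Midn and Spns2 for Anxa10, Ptpre and E430024I08Rik for Anxa11, and Esyt2 and Ascc3 for Anxa13. Each named gene was picked for its place at the top of 12087 values of r over 14 clusters. A high r was favoured by this choice, and likeness was not tested.

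The media were then compared over all nuclei of a sample, to ask which annexins differed between QCM and SCM exposed organoids. In such sums, fewer nuclei of a type and less RNA per nucleus cannot be told apart. Anxa1, Anxa3, Anxa5 and Anxa6 were higher in every SCM sample than in every QCM sample, a pattern seen in 4.99% of the 19046 genes tested. After adjustment over all genes edgeR called 0 members and 0 genes, with 866 genes at an unadjusted p below 0.05. DESeq2 called 20 genes, of which 19 (0.0998% of those tested) were higher in SCM, and 0 members.

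Anxa1 stood at 16.6, 5.89 and 7.98 CPM in QCM replicates 1, 2 and 3, and at 44.2, 74.3 and 28.1 CPM in the SCM replicates. The groups did not overlap, and SCM replicate 2 was the highest. As a log2 ratio SCM exceeded QCM by 2.01 ± 0.53 (SE, edgeR adjusted p = 0.927, DESeq2 adjusted p = 0.0619).

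Anxa3 was at 21.7, 16.8 and 21.7 CPM in QCM and at 49.6, 95.1 and 43.5 CPM in SCM, again with the highest value in SCM replicate 2. Its log2 ratio was 1.46 ± 0.33 (SE, edgeR adjusted p = 0.927, DESeq2 adjusted p = 0.0557), and without SCM replicate 2 it was 1.03. Anxa5 was at 13, 8.07 and 10.8 CPM in QCM and at 19.4, 28.8 and 18.7 CPM in SCM. This gave a log2 ratio of 0.87 ± 0.31 (SE, edgeR adjusted p = 0.927). Anxa6 was low throughout, at 2.97, 2.88 and 4.47 CPM in QCM and 5.89, 7.84 and 5.0 CPM in SCM (log2 ratio 0.70 ± 0.32, SE).

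Anxa10 overlapped between the media. It was at 26.3, 6.42 and 13.6 CPM in QCM and at 37.1, 60.8 and 19.7 CPM in SCM, so that SCM replicate 3 lay below QCM replicate 1. The log2 ratio was 1.08 ± 0.60 (SE). Anxa2 also overlapped, with 129 to 150 CPM in QCM and 131 to 217 CPM in SCM, and had a log2 ratio of 0.15 ± 0.25 (SE).

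The 4 other members had small estimates, each smaller than its SE. The log2 ratio was -0.10 ± 0.25 (SE) for Anxa4, -0.09 ± 0.20 for Anxa7, -0.08 ± 0.19 for Anxa11 and 0.17 ± 0.45 for Anxa13. With scaling by library size alone, which moved the median of all genes from -0.01 to 0.14, the estimates of Anxa4, Anxa7 and Anxa11 moved with it to 0.05, 0.09 and 0.07, and stayed below that median. Anxa13 ranged from 26.2 to 88.7 CPM in QCM and from 37.3 to 99.0 CPM in SCM, with the lowest value of each medium in the replicate numbered 1.

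**Figure D2:**
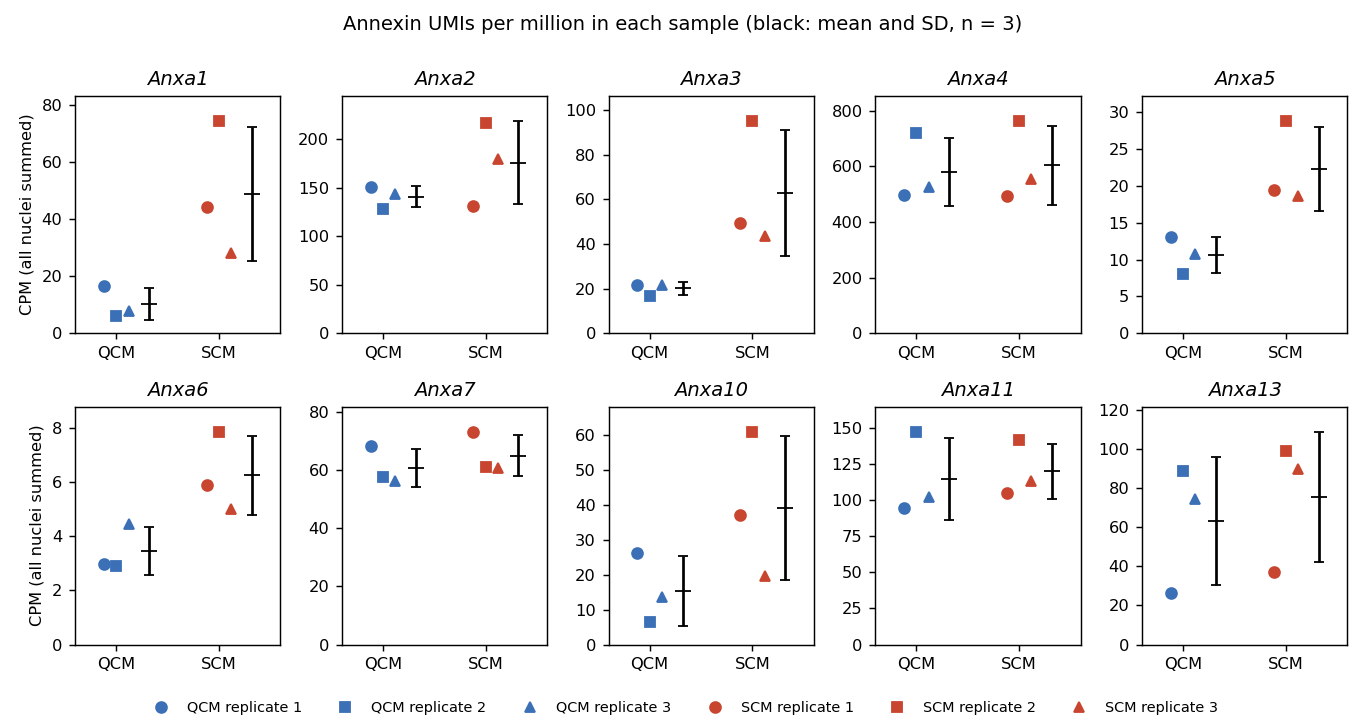
CPM of each annexin in the 6 samples, all nuclei of a sample summed (y axis, linear from 0), with QCM in blue, SCM in red and the mean and SD of 3 samples in black. The SCM samples lie above all QCM samples for Anxa1, Anxa3, Anxa5 and Anxa6, and the samples overlap for the other 6 members.

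In all, 3 of the 10 members (Anxa1, Anxa3 and Anxa5) were higher in SCM at an unadjusted edgeR p under 0.05, against 1.46% of all genes tested, and 0 were lower, against 3.08%. With the replicate number as a block edgeR again called 0 genes, with 6.19% of genes at an unadjusted p under 0.05. Estimates were higher in SCM for 7 of 10 members, with a median log2 ratio of 0.44, against 48.6% and -0.01 for all genes. Fetal-type markers other than annexins moved with these results. The 11 genes of that list summed to between 69.2 and 141 CPM in QCM and between 150 and 576 CPM in SCM, and their part in the annexin values was not tested. The 10 fibroblast markers summed to between 3.63 and 9.54 CPM in QCM and between 2.46 and 4.66 CPM in SCM, with Col1a1 at 0 in 4 of the 6 samples, and the epithelial marker Epcam was at 639 CPM or more in each. Sums of markers of differentiated types were on the lower side in SCM for 4 lists, with ranges that overlapped those of QCM. The 7 goblet markers summed to between 808 and 2011 CPM in QCM and 499 and 827 CPM in SCM, and the 6 Paneth markers to between 518 and 2633 CPM and between 335 and 582 CPM. For the 8 enterocyte markers the ranges were 1318 to 5173 CPM and 675 to 1949 CPM, and for the 9 enteroendocrine markers 175 to 330 CPM and 52.3 to 196 CPM. Ribosomal protein genes took 4.85% to 13.99% of UMIs in QCM and 2.54% to 7.17% in SCM. The part of these lists in the annexin values was not tested.

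Very deep nuclei weighed on these sums. Cluster 14 held 7 nuclei of SCM replicate 1, and these 7 nuclei carried 32.2% of the UMIs of that sample, 63.9% of its Anxa1, 65.6% of its Anxa10 and 57.4% of its Anxa3. Without cluster 14, SCM replicate 1 was at 23.5 CPM for Anxa1, above the highest QCM sample at 17.6, and at 31.1 CPM for Anxa3, above 22.8. It was at 12.7 CPM for Anxa5, below QCM replicate 1 at 13.6, so that the media then overlapped for Anxa5. The log2 ratios without cluster 14 were 1.75 for Anxa1, 1.29 for Anxa3 and 0.71 for Anxa5. Without the shared barcodes they were 1.91, 1.45 and 0.78, and without SCM replicate 1 they were 2.09, 1.61 and 0.97.

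With every nucleus of at least 1000 UMIs given the same weight, the estimates were smaller. The log2 ratio was then 1.63 for Anxa1, 0.94 for Anxa3, 0.59 for Anxa5, 0.47 for Anxa10 and 0.18 for Anxa6. In CPM of these sums SCM lay wholly above QCM for Anxa1, Anxa3 and Anxa5, as for 3.81% of all genes, and the samples overlapped for Anxa6 and Anxa10. In the share of nuclei with a UMI at 1000 UMIs per nucleus, Anxa1 was at 0.930% ± 0.591 in QCM and 3.36% ± 1.02 in SCM (SD, n = 3), Anxa3 at 1.68% ± 0.33 and 3.48% ± 0.62, and Anxa5 at 1.05% ± 0.37 and 1.79% ± 0.16. For these 3 members the media did not overlap (exact permutation p = 0.1, two-sided, the smallest that 3 samples against 3 allow), as for 3.66% of all genes tested (2.32% lay wholly below), and for the other 7 they did. For Anxa1 the samples were at 1.61%, 0.51% and 0.68% in QCM and 4.12%, 3.75% and 2.20% in SCM, so that here SCM replicate 1 was highest. Before this correction for depth, the shares were 5.15% ± 6.50 in QCM and 8.86% ± 3.40 in SCM for Anxa1.

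**Figure D3:**
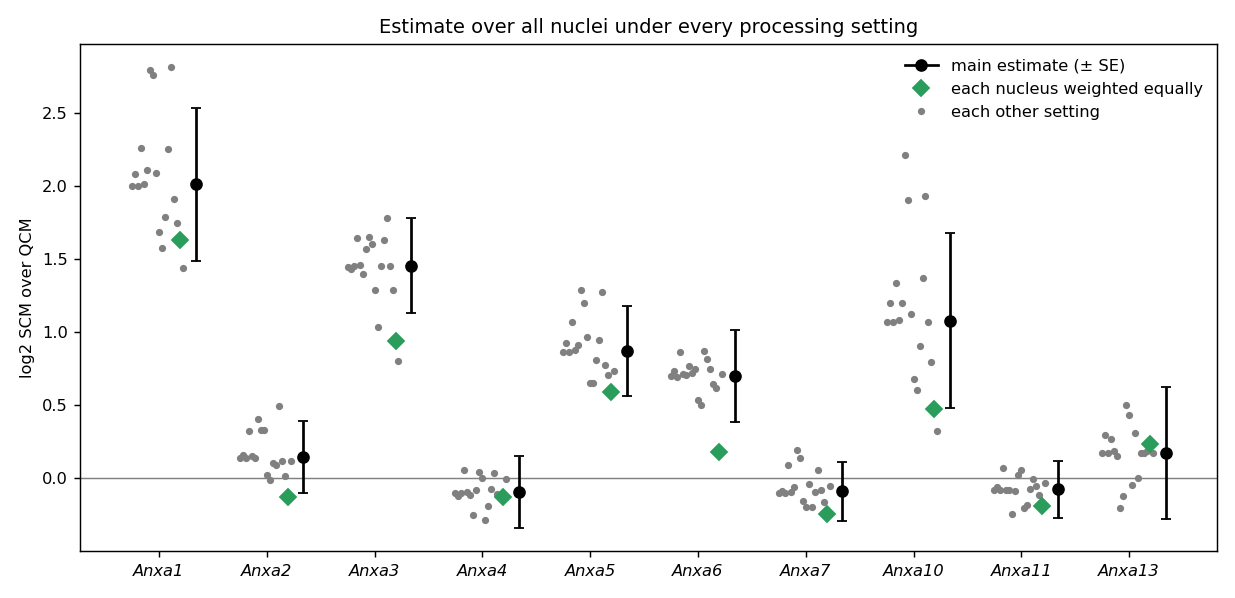
log2 ratio of SCM to QCM over all nuclei (y axis) for each annexin, with the main edgeR estimate and its SE in black, the estimate with every nucleus weighted equally in green and the 17 other processing settings in grey. Anxa1 stays between 1.44 and 2.82 and Anxa3 between 0.80 and 1.78, Anxa5, Anxa6 and Anxa10 stay above 0, and the other 5 members fall on both sides of 0.

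Whether the differences lay in particular clusters was asked by fitting the media within each of the 13 clusters that had at least 2 samples per medium with 10 or more nuclei. In these fits 107 pairs of a member and a cluster were tested, and edgeR called 0 of them after adjustment within the cluster. At an unadjusted p under 0.05, 19 pairs were higher in SCM, against 1.2% of all gene and cluster pairs, and 0 were lower, against 4.55%. With no low-count filter, 9 of 130 pairs of a member and a cluster were called, all higher in SCM, against 0.984% of 318724 pairs over all genes (292 higher and 2843 lower). The pairs share their 6 libraries and are not independent. A pair could pass the low-count filter through a single medium, as Anxa6 in cluster 7 and Anxa1 in cluster 8 did through their SCM samples. Neither pair would have been tested with SCM as low as QCM. How many other pairs passed in this way was not counted.

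Anxa1 had a higher estimate in SCM in 10 of the 10 clusters where it was tested, with log2 ratios between 0.95 in cluster 1 and 2.18 in cluster 2. Anxa3 was likewise higher in 10 of 10 clusters (0.54 to 1.31), and Anxa5 in 9 of 10 (-0.04 to 1.20). Of all gene and cluster pairs, 49.3% had a higher estimate in SCM. The clusters tested were those where a gene passed the low-count filter, so these counts were not free of the level in SCM. The 5 pairs with the smallest unadjusted p included Anxa3 in cluster 0 (log2 ratio 1.28 ± 0.27, SE), Anxa1 in cluster 2 (2.18 ± 0.47) and Anxa1 in cluster 0 (1.76 ± 0.42). The others were Anxa6 in cluster 7 (1.99 ± 0.50) and Anxa1 in cluster 8 (1.75 ± 0.48), both tested only because of their SCM samples. Anxa1 in cluster 8 was at 4.70 to 9.16 CPM in QCM and 16.6 to 35.7 CPM in SCM. The lowest adjusted edgeR p among all 107 was 0.339. In cluster 0, a large unnamed cluster with little Anxa3, this gene was at 11, 8.06 and 10.3 CPM in QCM and 18.0, 24.9 and 24.9 CPM in SCM. The media did not overlap, but the 18.0 CPM of SCM replicate 1 came from 19 nuclei with a median of 1514 UMIs. It rested on very few Anxa3 UMIs, and so did the lack of overlap. Anxa1 in cluster 0 was at 9.32, 3.76 and 4.34 CPM in QCM and 8.98, 24.5 and 16 CPM in SCM. Here SCM replicate 1 lay below QCM replicate 1.

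**Figure D4:**
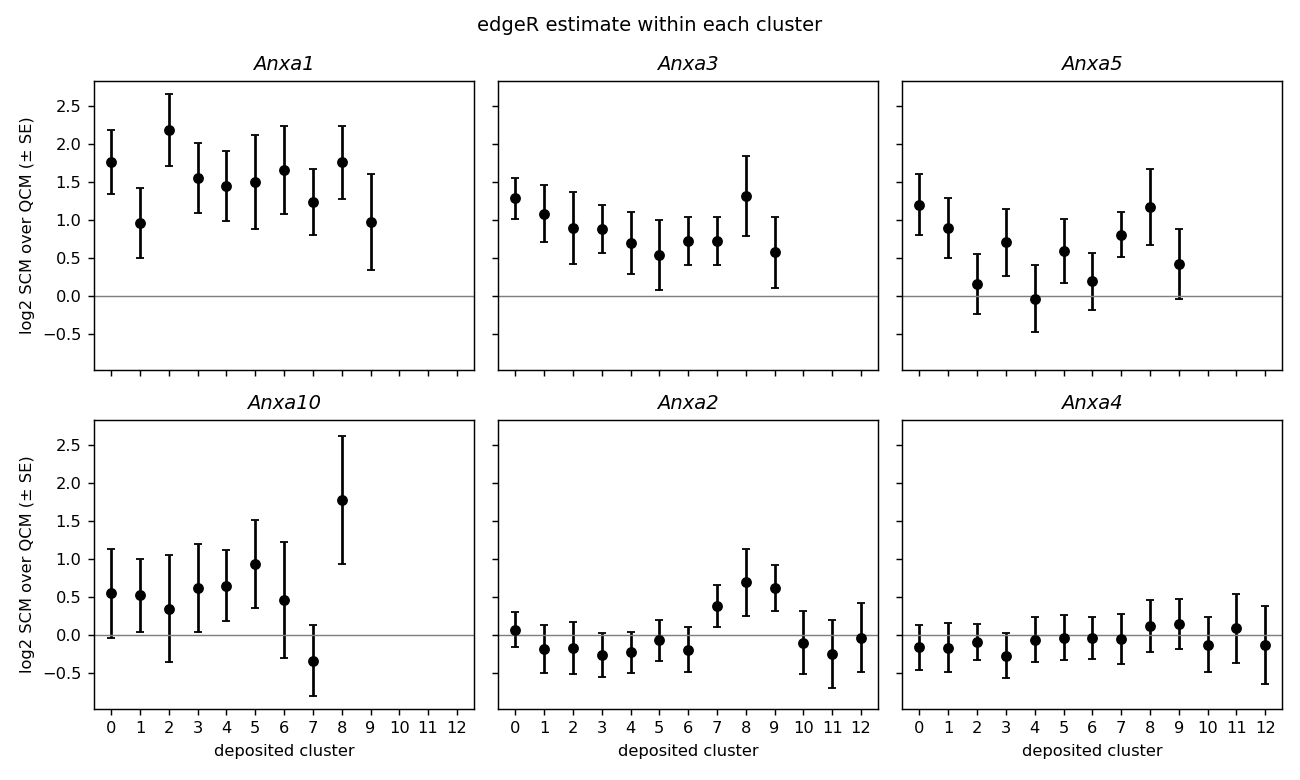
edgeR log2 ratio of SCM to QCM with its SE (y axis) within each fitted cluster (x axis) for 6 annexins, with no point where the gene was too low to test. Anxa1 and Anxa3 are above 0 in all 10 clusters tested, Anxa10 is below 0 in cluster 7 alone, where its estimate of -0.34 turns to 0.20 with nuclei weighted equally, and Anxa4 stays near 0.

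Estimates for Anxa2, Anxa4, Anxa7, Anxa11 and Anxa13 lay closer to 0 or on both sides of it. Anxa2 had estimates between -0.27 and 0.69, higher in SCM in 4 of 13 clusters, the largest being in clusters 8, 9 and 7. Anxa13 had a higher estimate in 11 of 13 clusters (-0.24 to 1.13), Anxa11 in 4 of 13, Anxa4 in 3 of 13 and Anxa7 in 2 of 12. No pair of these 5 members had an unadjusted p under 0.05.

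Cluster 7 was looked at on its own, since it was the highest for several members. Anxa1 was there at 113, 62.3 and 43.4 CPM in QCM and at 143, 306 and 119 CPM in SCM, with no overlap (log2 ratio 1.23 ± 0.44, SE, edgeR adjusted p = 0.339). Anxa1, Anxa3 and Anxa5 were higher there at an unadjusted edgeR p under 0.05, as were 3.4% of all genes tested in cluster 7. Anxa6 was too, but it passed the low-count filter through its SCM samples alone. Anxa3 was at 132, 210.0 and 121 CPM in QCM and 215, 395 and 192 CPM in SCM, where SCM replicate 3 lay below QCM replicate 2. Anxa10 was at 306, 127 and 139 CPM in QCM and 169, 254 and 85.7 CPM in SCM (log2 ratio -0.34 ± 0.46, SE), and the media overlapped. The value of QCM replicate 1 came mostly from the single nucleus with 300 of its 442 UMIs. With nuclei weighted equally Anxa10 was at 58.9, 36.9 and 73.8 CPM in QCM and 58.1, 144 and 39.9 CPM in SCM, and the estimate turned to 0.20. It was 0.29 without QCM replicate 1 and 0.04 without SCM replicate 3, so no direction can be given for Anxa10 in cluster 7. In the other 8 clusters tested its estimates were between 0.34 and 1.77. The highest was in cluster 8, where SCM replicate 2 alone lay above the QCM samples. Anxa6 was at 6.24, 4.35 and 2.63 CPM in QCM and 19.5, 28.2 and 14.1 CPM in SCM, without overlap, but from 9, 3 and 2 UMIs in QCM and 3, 96 and 30 UMIs in SCM.

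The step from the other nuclei of a sample to cluster 7, as a difference in log2(CPM + 1), was compared between the media for 6 members. For Anxa10 it was 4.36 ± 0.61 in QCM and 2.77 ± 0.56 in SCM (SD, n = 3), a difference of -1.59 with no overlap (two-sided exact permutation p = 0.1, the smallest possible). Without cluster 14 among the other nuclei, the step of SCM replicate 1 was 3.96, above the 3.87 of QCM replicate 3, and the difference was -1.04 with overlap (exact p = 0.2). With nuclei weighted equally the steps were 2.61 ± 0.82 and 2.05 ± 0.70, a difference of -0.57 that overlapped (exact p = 0.3). For Anxa6 the step was 0.26 ± 0.78 in QCM and 1.94 ± 0.57 in SCM, higher by 1.68 (exact p = 0.1), and with nuclei weighted equally higher by 2.23 with overlap (exact p = 0.2). For Anxa1 it was 3.05 ± 0.52 in QCM and 2.55 ± 0.78 in SCM (exact p = 0.4), for Anxa3 3.21 ± 0.78 and 2.77 ± 0.57 (exact p = 0.5), for Anxa5 1.87 ± 0.90 and 1.95 ± 0.38 (exact p = 1) and for Anxa2 1.29 ± 0.26 and 1.67 ± 0.50 (exact p = 0.3). With nuclei weighted equally the sign turned for Anxa1 (from -0.50 to 0.25) and Anxa3 (from -0.45 to 0.55). Higher Anxa1 and Anxa3 estimates for SCM were measured outside cluster 7 as well. In those nuclei Anxa1 had a mean of 7.97 ± 4.58 CPM in QCM and 29.9 ± 10.0 CPM in SCM (SD, n = 3). For Anxa3 the means were 15.6 ± 3.79 and 36.8 ± 6.21 CPM. With cluster 14 left out too, SCM replicate 1 fell from 40.3 to 16.5 CPM for Anxa1 and from 43.1 to 20.3 for Anxa3. The highest QCM sample, replicate 1, was then at 13.9 and 18.6 CPM.

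**Figure D5:**
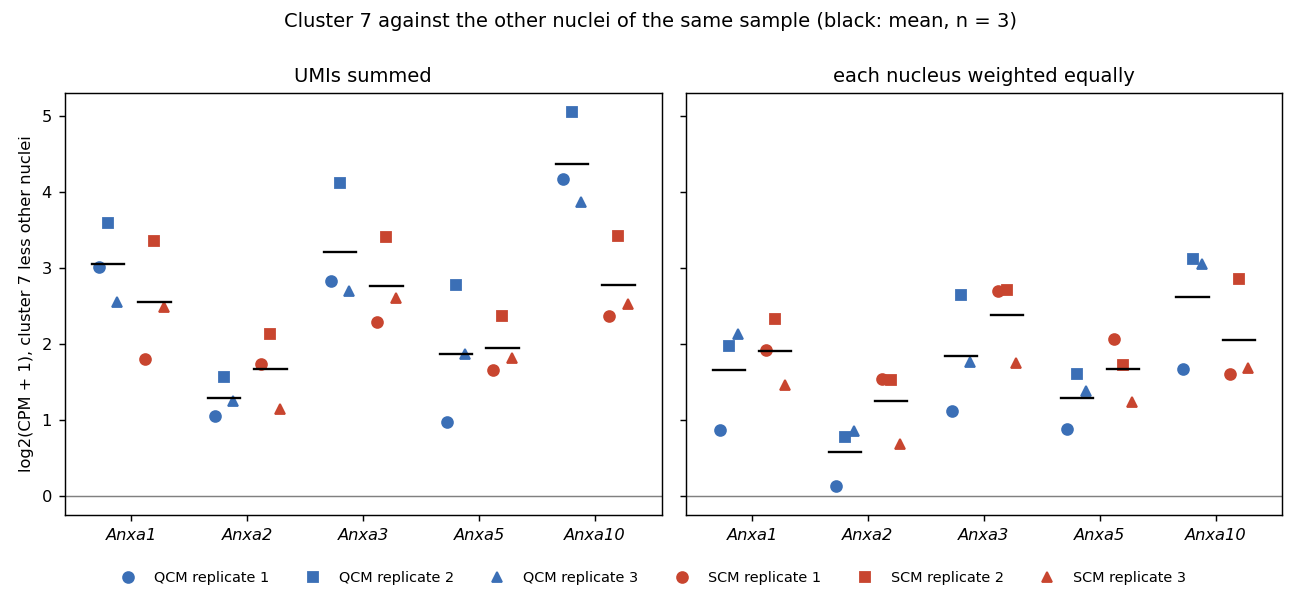
Level in cluster 7 less that in all other nuclei of a sample, as a difference in log2(CPM + 1) (y axis), for 5 annexins in each QCM (blue) and SCM (red) sample, with the mean of 3 samples as a black line. On the left UMIs are summed and on the right each nucleus has the same weight. All 60 points are above 0, and the step of Anxa10 is lower in every SCM than in every QCM sample on the left (means 4.36 and 2.77) and overlaps on the right. The samples also overlap on the left once cluster 14 is left out (difference -1.04).

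Genes that work with annexins were taken from a list of 44 genes: S100 partners, formyl peptide receptors, the plasminogen system, ferlins, copines, other membrane repair genes and the other mouse annexins. Of these, 36 were tested over all nuclei. Estimates were higher in SCM for 16 (44.4%, against 48.6% of all genes) and lower for 20, with a median log2 ratio of -0.07, against -0.01 for all genes. None was called by edgeR. At an unadjusted p under 0.05, 5 were higher (Capn2, Myof, Anxa8, Ahnak and S100a14), against 1.46% of all genes, and 0 lower, against 3.08%. In 7 of the 36, SCM samples were all above QCM samples, and in 0 all below, against 4.99% and 2.09% of all genes. Without cluster 14 the first count was 4 (Capn2, Myof, Anxa8 and S100a14), against 4.65% of all genes, and the second 0, against 2.15%.

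Capn2, a calpain protease subunit that acts in membrane repair, had the smallest unadjusted p. It was at 4.09, 5.23 and 6.07 CPM in QCM and 14, 23.9 and 12.5 CPM in SCM (log2 ratio 1.56 ± 0.30, SE, edgeR adjusted p = 0.927). Myof, which encodes the membrane repair protein myoferlin, was at 12.2, 15.7 and 13.7 CPM in QCM and 41.3, 124 and 31.5 CPM in SCM (log2 ratio 2.08 ± 0.48, SE). Both were called by DESeq2, with adjusted p-values of 0.00768 and 0.0137. Without cluster 14, SCM replicate 1 was at 9.78 CPM for Capn2 and 19.9 CPM for Myof, above the highest QCM samples at 6.07 and 16.1. Over all settings the log2 ratio ran from 1.11 to 1.72 for Capn2 and from 1.00 to 2.40 for Myof. Anxa8, an annexin that is no member of the list of 10, was at 1.05, 0.78 and 1.15 CPM in QCM and 1.23, 7.65 and 2.69 CPM in SCM (log2 ratio 1.82 ± 0.63, SE), with SCM replicate 2 far above the rest.

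For the direct partners of Anxa1 and Anxa2 the estimates were of either sign. S100a11, which binds the N-terminal tail of Anxa1, was at 118, 40.6 and 98.4 CPM in QCM and 126, 131 and 151 CPM in SCM, without overlap (log2 ratio 0.45 ± 0.42, SE, edgeR adjusted p = 0.929). Without cluster 14 S100a11 was at 93.1 CPM in SCM replicate 1, below the 125 CPM of QCM replicate 1, and the media overlapped. S100a10, the partner of Anxa2, was at 259, 112 and 211 CPM in QCM and 91.4, 96.3 and 213 CPM in SCM (log2 ratio -0.73 ± 0.47, SE, edgeR adjusted p = 0.929), and overlapped. Ahnak, a scaffold that binds the complex of S100a10 and Anxa2, was at 41.0, 40.5 and 61.6 CPM in QCM. In SCM it was at 51.8, 230 and 84.8 CPM (log2 ratio 1.19 ± 0.50, SE), where SCM replicate 1 lay below QCM replicate 3. Without cluster 14 SCM replicate 1 was at 26.1 CPM for Ahnak, below all QCM samples (40.7 to 61.6 CPM).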

How the data were processed

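The authors isolated nuclei from frozen organoids, made droplet libraries of the 3′ end of transcripts and counted reads with Cell Ranger 2.1.1 on mm10, as the submitters' processing notes name them (the study's methods give no version), and nuclei of outlying quality had been removed by them. The deposited matrices hold UMI counts per gene and nucleus, which were used as deposited. The deposited table of nuclei gives the cluster and the mitochondrial fraction, the latter used only to describe samples. The other deposited matrices were not used. Whether intronic reads were counted is not given in the sources used here, so a count may cover spliced RNA alone or unspliced RNA too. Symbols were matched for 31244 of 31319 genes. The 10 members, the partner list, the marker lists and the alternatives were chosen with earlier results of these data known.

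Nuclei of 1 sample are no replicates, so their counts were added up by sample, and by sample within each cluster. Sums were compared with edgeR 4.0.16 (quasi-likelihood, TMM, filterByExpr at a minimum count of 10, R 4.3.3), with Benjamini-Hochberg adjustment over all genes at a threshold of 0.05. The SE printed with an edgeR log2 ratio was derived from the test, as the absolute ratio divided by the square root of its F statistic. For single values per sample an exact permutation test (two-sided) was used. DESeq2 1.42.0 and limma 3.58.1 served as alternatives. Tables were made in Python 3.11.15 with pandas 2.3.3. For equal weight, the UMIs of each nucleus were scaled to 1000, nuclei with fewer were left out (0 to 1876 per sample, 106 of 430 in SCM replicate 1), and sums were rounded. Sample totals of 4071926 to 41035733 UMIs make low genes least precise in SCM replicate 1. Doublets were not removed here. The named genes were the 10 members, S100a10, S100a11, Myof and Anxa8, the 4 partner genes and the 5 member and cluster pairs of smallest unadjusted p, and the 3 genes most like each member, except that those after the first are not reported here for Anxa5. S100a14, Epcam and Col1a1 were added after their values were seen. Whether counting used strand is not given in the sources used here, and whether reads of the antisense gene Anxa11os entered the Anxa11 count was not tested.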

Additional observations from a re-analysis of the deposited data

How the results depend on the processing

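Over all nuclei, the estimates of Anxa1, Anxa3, Anxa5, Anxa6 and Anxa10 stayed above 0 under all 18 alternatives, and no member was called under any of them. Leaving out 1 sample gave 1.58 to 2.76 for Anxa1, 1.03 to 1.66 for Anxa3, 0.65 to 1.20 for Anxa5, 0.50 to 0.87 for Anxa6 and 0.60 to 1.91 for Anxa10. Anxa10 (1.08) moved by over 1.5 times without QCM replicate 1 (1.91), SCM replicate 2 (0.60) or QCM replicate 2 (0.68). Over all 18 alternatives Anxa10 ran from 0.32 to 2.22. The ranges for the other members were -0.0163 to 0.33 for Anxa2, -0.29 to 0.0443 for Anxa4, -0.20 to 0.14 for Anxa7, -0.21 to 0.0542 for Anxa11 and -0.12 to 0.50 for Anxa13, so that their signs turned. Their signs also turned with nuclei weighted equally (Anxa2 -0.13), with a covariate for the share of ribosomal protein genes (Anxa7 0.19, Anxa13 -0.21) and with replicates 2 and 3 alone (Anxa4 0.0360, Anxa7 0.0539). The cause of these turns was not tested. Library size alone gave 0.0536 for Anxa4, 0.0923 for Anxa7 and 0.0674 for Anxa11, but it moved the median of all genes from -0.01 to 0.14, and these values stayed below it.

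DESeq2 called 20 genes over all nuclei, against 0 in edgeR, and leaving out 1 sample left the edgeR count at 0. Within clusters, calls over all genes went from 0 to 95 with DESeq2, 5 with library size alone, 3135 with no low-count filter and 248 with the replicate block, and were 0 to 32 on leaving out 1 sample (32 without QCM replicate 2 and 2 without SCM replicate 2). In cluster 7 the estimate of Anxa10 (-0.34) turned with the ribosomal covariate (0.16), replicates 2 and 3 alone (0.28) and equal weights (0.20), and ran from -0.86 to 0.29 on leaving out 1 sample. Without the filter, 0.984% of 318724 pairs over all genes were called (292 higher and 2843 lower in SCM). Of 130 pairs of a member and a cluster 9 were called, all higher. They were Anxa1 in clusters 0, 2, 3, 6 and 7, Anxa3 in 0, Anxa6 in 7 and Anxa10 in 8 and 9. In cluster 9 Anxa10 was at 4.66 and 82.5 CPM in the 2 SCM samples and at 4.42 to 9.14 CPM in QCM. In cluster 8 only SCM replicate 2 (210.9 CPM) lay above the QCM samples. Of the 36 partner genes tested, 27 were higher with the ribosomal covariate (48.1% of all genes) and 25 with clusters weighted equally (60.3% of all genes). The main count was 16 (48.6% of all genes). Leaving out 1 sample gave 15 to 21 of the partner genes then tested.

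The step of cluster 7 changed by 0.25 (Anxa1) and 0.55 (Anxa3) between the media with nuclei weighted equally, against -0.50 and -0.45, and by -0.57 against -1.59 for Anxa10. Without cluster 14 it changed by -0.07 for Anxa1, -0.08 for Anxa3 and -1.04 for Anxa10. On leaving out 1 sample it ran from -0.91 to -0.13 for Anxa1, from -0.76 to 0.00476 for Anxa3 and from -0.37 to 0.52 for Anxa5.

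Samples of the 2 media share replicate numbers, and the labels do not say what a number marks. The deviations of same-numbered samples correlated at 0.36, 0.46 and -0.09 over genes, so pairs 1 and 2 deviated together and pair 3 did not, and the samples were not treated as paired because not every pair was over 0.1. With the replicate block no member was called, and Anxa1 had a log2 ratio of 2.11 and Anxa3 of 1.40. Equal weights, the removal of cluster 14 or of shared barcodes, and replicates 2 and 3 alone were chosen after seeing the data. Depth limits Anxa6, which rested on few UMIs per sample, and all members in SCM replicate 1.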
